A study of Mus musculus with 15 samples.

Results

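Mitosis and G2/M genes encode the machinery that carries a cell from the end of DNA replication through chromosome segregation and cell division, and 51 of them were followed here in group 2 innate lymphoid cells (ILC2) and regulatory T (Treg) cells of the mouse. They were taken by gene symbol from a list of mitotic regulators, and all 51 were measured in both expression tables, among 23846 genes with values in the table of IL-33-injected and control mice and 23529 in the table of reporter mice. The first table held 3 libraries of lung ILC2 from PBS-injected mice (ILC2PBS, named 1, 2 and nA) and 2 from IL-33-injected mice (ILC2IL-33, named Expand and WT). The second table held IL-33-activated, Thy-1.1-negative lung ILC2 (ILC2act 1, 3 and 7) and Thy-1.1-positive lung ILC2 (ILC210 2, 4 and 8), with splenic Treg cells that lacked the reporter (Treg10- 5 and 9) or carried it (Treg10+ 6 and 10). The methods name C57BL/6 and 10BiTFoxp3GFP mice of either sex, 6 to 14 weeks of age, injected with 500 ng IL-33 or with PBS on each of 4 days, and give pools of 5 mice per experiment. In 10BiTFoxp3GFP mice a Thy-1.1 reporter marks Il10 transcription and GFP marks Foxp3, so that ILC210 and ILC2act, and both Treg groups, carry the same alleles and the same IL-33 treatment and differ by the sorted Thy-1.1 signal. ILC2 in the lung were sorted by the IL-33 receptor ST2.

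Entry into mitosis is driven by CDK1 bound to cyclin A or cyclin B. The Aurora and Polo-like kinases and the chromosomal passenger complex then build the spindle and correct its attachments, and the spindle checkpoint holds back the anaphase-promoting complex (APC/C) until every kinetochore is attached. Many of these genes are silent in resting cells, where the DREAM complex binds their promoters, and are switched on late in the cycle by the MYB-MuvB complex and the transcription factor FoxM1. ILC2 are largely resting in the unchallenged lung and expand after IL-33.

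A few promoters of members were printed to show where the letters of the cell cycle genes homology region (CHR) and of CCAAT boxes lie. RefSeq promoter windows (build GRCm38.p6, 250 bases before to 50 after the start) were matched to 44 of the 51 members, Sgol1 under its current symbol Sgo1, and gave 47 windows because 3 members had more than 1 start. Each line below runs 5′ to 3′ on the gene's strand from 120 bases before the start to 30 bases after it. Capitals mark the CHR letters TTTGAA or TTTAAA, and CCAAT, on either strand. The lines give both B cyclins, the kinase Plk1, the APC/C activator Cdc20, the CDK subunit Cks1b, the kinesin Kif23, and Bub3, the member that changed least after IL-33.

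Ccnb1: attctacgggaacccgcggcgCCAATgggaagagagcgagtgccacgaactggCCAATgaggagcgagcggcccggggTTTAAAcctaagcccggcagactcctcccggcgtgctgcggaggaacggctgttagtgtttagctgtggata
Ccnb2: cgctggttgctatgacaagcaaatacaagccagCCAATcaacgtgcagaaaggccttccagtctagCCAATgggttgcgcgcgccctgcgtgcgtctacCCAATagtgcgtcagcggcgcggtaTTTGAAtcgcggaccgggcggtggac
Plk1: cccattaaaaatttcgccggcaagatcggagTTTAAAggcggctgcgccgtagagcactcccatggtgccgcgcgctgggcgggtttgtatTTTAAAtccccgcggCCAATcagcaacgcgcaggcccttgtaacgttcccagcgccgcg
Cdc20: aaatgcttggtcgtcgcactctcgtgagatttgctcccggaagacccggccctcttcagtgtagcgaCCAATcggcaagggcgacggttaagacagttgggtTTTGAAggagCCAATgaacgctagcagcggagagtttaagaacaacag
Cks1b: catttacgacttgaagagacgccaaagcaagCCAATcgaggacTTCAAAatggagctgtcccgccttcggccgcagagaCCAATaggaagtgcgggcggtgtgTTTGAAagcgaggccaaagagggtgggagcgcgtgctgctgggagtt
Kif23: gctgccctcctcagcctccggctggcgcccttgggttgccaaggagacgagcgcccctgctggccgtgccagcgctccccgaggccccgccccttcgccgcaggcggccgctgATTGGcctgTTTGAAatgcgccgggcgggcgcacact
Bub3: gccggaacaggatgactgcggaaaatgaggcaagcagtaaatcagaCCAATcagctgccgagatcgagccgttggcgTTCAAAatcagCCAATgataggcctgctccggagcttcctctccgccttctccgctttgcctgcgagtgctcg

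The stretches lie at chr13:100786457-100786606 (Ccnb1), chr4:118437314-118437463 (Cdc20), chr3:89418262-89418411 (Cks1b) and chr9:61946770-61946919 (Kif23) on the minus strand, as does that of Ccnb2, and at chr7:122159315-122159464 (Plk1) on the plus strand, as does that of Bub3. Ccnb2 at chr9:70421525-70421674 had 3 CCAAT boxes upstream and a CHR just after the start. Bub3 at chr7:131560250-131560399, which changed least, held both kinds of letters as well. Of the 47 windows, 38 (80.9%) held a CHR, against 27.6% of the 32851 windows of all genes. CCAAT was found in 35 windows (74.5%, against 37.4%), and both together in 31. Windows of 1 gene overlap. E2F-type letters (TTTCCCGC, TTTGGCGC or TTTCGCGC) lay in 3 windows (6.38%, against 1.84%), those of Cdk1, Kif15 and Ncapg. In the promoters of a list of DNA replication and G1/S genes, 8 of 28 windows (28.6%) held a CHR, 19 (67.9%) CCAAT and 10 (35.7%) E2F-type letters. In the promoters of other mitotic genes, 25 of 39 windows (64.1%) held a CHR and 29 (74.4%) CCAAT. Within the members, CHR matches gathered near the start. A CHR began in the 50 bases after the start in 42.6% of the windows, against 3.37% of all promoters, and in the 50 bases before it in 31.9%, against 5.22%. Mad2l1, Melk, Ncaph, Nuf2 and Nusap1 held neither kind of letters. These are matches of letters, and no binding was measured.

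**Figure D1:**
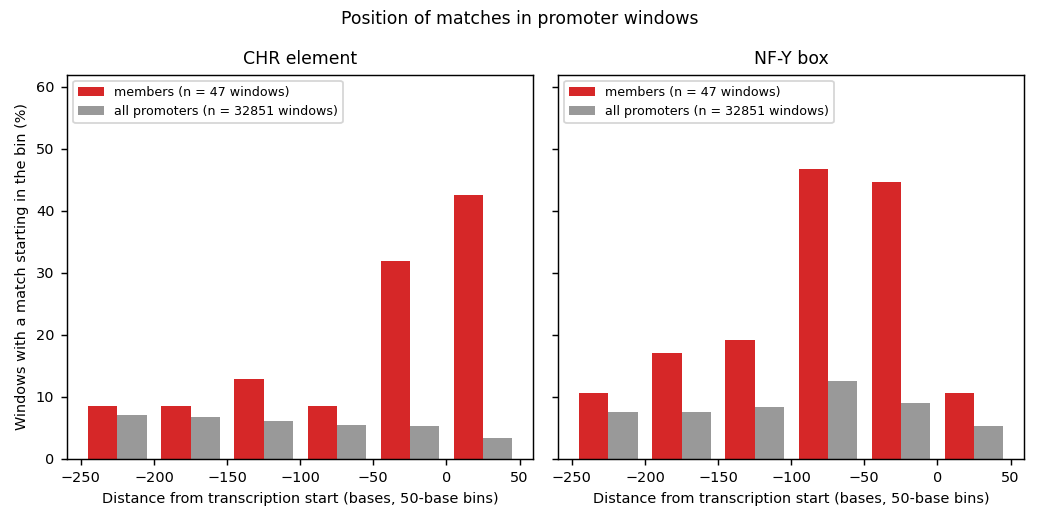
Share of promoter windows (%) with a match beginning in each 50-base bin, by distance from the transcription start (bases), for the CHR (left) and the NF-Y box, CCAAT (right). Red bars are the 47 windows of members and grey bars the 32851 windows of all genes. In the bin after the start, 42.6% of member windows and 3.37% of all windows held a CHR.

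Levels are given as FPKM, the fragments of a gene scaled to its length and to the depth of the library. From the spacing of the lowest FPKM values the libraries were estimated to hold 7800000 (Treg10+ 6) to 21800000 (ILC210 8) mapped fragments, while the labels give averages of about 20000000 and 10000000 reads for the first and the second table. At these estimates 1 FPKM corresponds to 13.6 to 18.6 fragments per kilobase in the libraries of the first table, so the members at low levels in ILC2PBS rest on few fragments. Foxp3 was at 88.4 to 112 FPKM in the Treg libraries and at no more than 0.0955 FPKM in the ILC2 libraries of reporter mice, and Gata3 was at 89.2 to 125 FPKM in ILC2PBS and 165 and 180 FPKM in ILC2IL-33. RNA of other lung cells differed between the groups. The summed level of 29 genes of lung epithelium, endothelium and mesenchyme was 6555 to 17141 FPKM in ILC2PBS, 177 and 296 FPKM in ILC2IL-33, 534 to 666 FPKM in ILC2act and 6254 to 10316 FPKM in ILC210. Among the Treg cells it was 56.7 to 69.3 FPKM, and 8 macrophage genes summed to 12.5 and 45.4 FPKM in Treg10- and to 228 and 247 FPKM in Treg10+. The same 8 genes summed to 74.6 to 118 FPKM in ILC2PBS and to 5.70 and 7.95 FPKM in ILC2IL-33. In ILC2act they summed to 5.21 to 6.26 FPKM, and in ILC210 to 50.8 to 131 FPKM. Sums of granulocyte, B cell and erythroid genes were also higher in ILC210 than in ILC2act, and that of T cell genes was lower. The Y-linked Ddx3y was at 5.47 and 8.25 FPKM in ILC2PBS 1 and 2 and at or under 0.153 FPKM in ILC2PBS nA and both ILC2IL-33 libraries, and the comparison is given later also without PBS 1 and 2. In RNA of sorted populations, a smaller share of cycling cells and less RNA per cycling cell cannot be told apart.

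**Figure D2:**
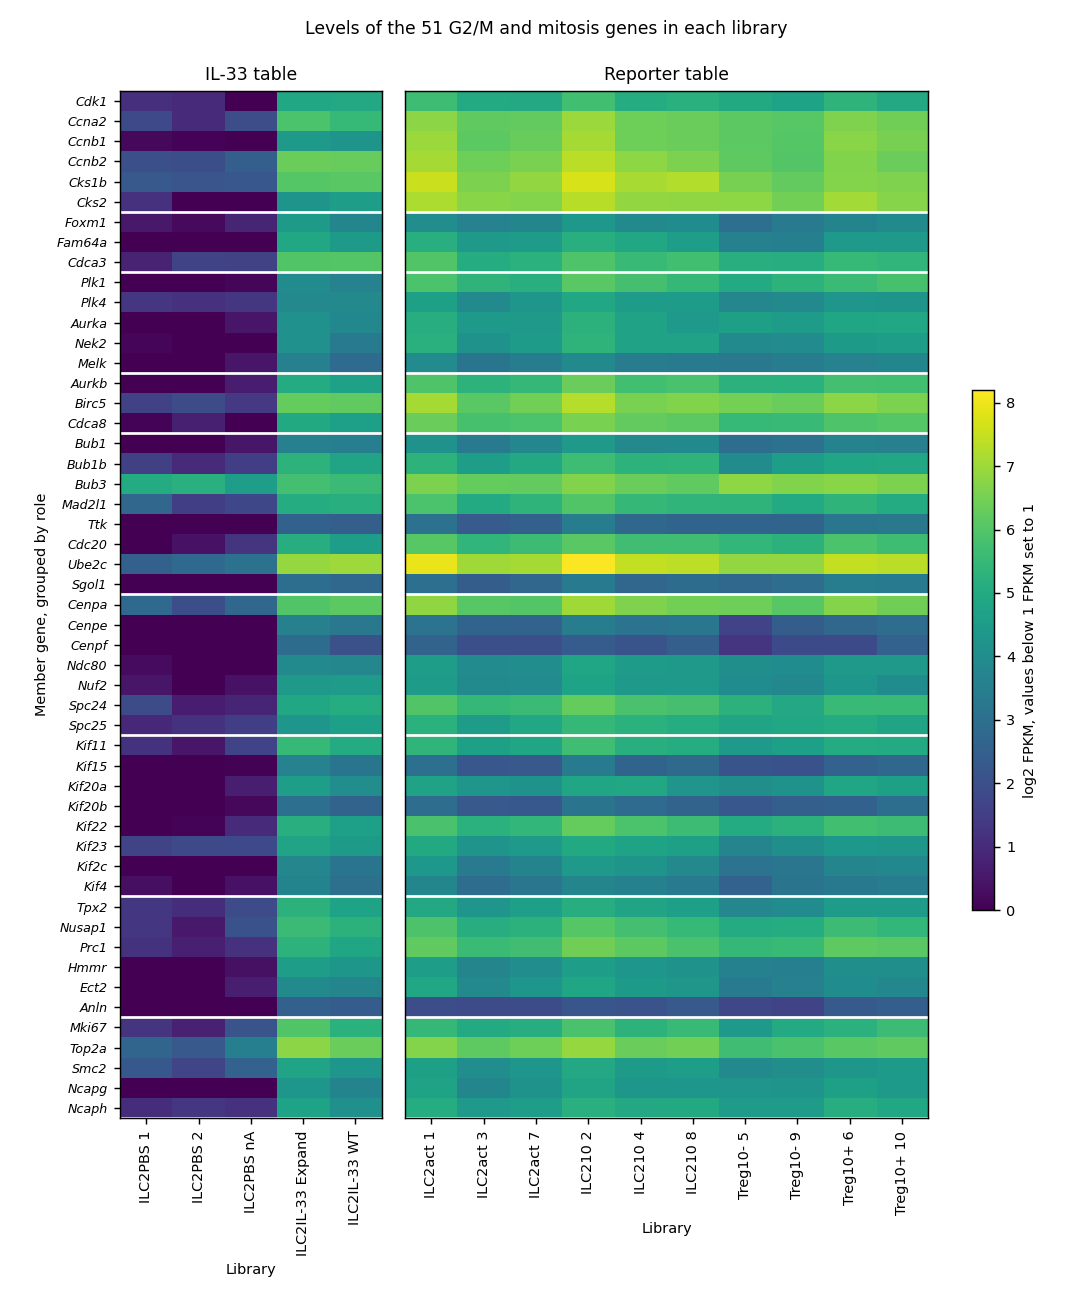
Level of each of the 51 members (rows, grouped by role and separated by white lines) in each library (columns), as log2 FPKM with values below 1 FPKM set to 1, in the table of IL-33 and PBS libraries (left) and of reporter libraries (right). The ILC2PBS columns are the darkest, with Bub3 their brightest row, and Ube2c is the brightest row in the others.

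Nearly the whole machinery was higher after IL-33. The comparison of ILC2IL-33 with ILC2PBS asks how ILC2 change on activation in vivo. In ILC2PBS the members were low. Their geometric mean, with values under 1 FPKM set to 1, was 1.85, 1.66 and 2.06 FPKM in libraries 1, 2 and nA, and 31, 28 and 37 of the 51 lay above 1 FPKM. After IL-33 the geometric mean was 25.5 FPKM in Expand and 20.9 FPKM in WT, and all 51 lay above 1 FPKM, from 4.08 to 129 FPKM. In limma on log2 values, with Benjamini-Hochberg adjustment over the 12565 genes tested, 50 of 51 members passed (an adjusted p below 0.05 and at least a 2-fold difference), all of them higher after IL-33. Of all genes tested 8.22% were called higher and 18.0% lower. Of the 51 members, 30 were above 1 FPKM in at least 2 PBS libraries and were tested whatever their level after IL-33, and 29 of these were called. The other 21 entered the test through the IL-33 libraries, where they were high, and their count is a description. Among them Fam64a, Sgol1, Ttk, Cenpe, Cenpf, Kif2c, Anln and Ncapg were under 1 FPKM in all 3 PBS libraries. Without a filter on low values 50 members were again called, of 633 genes called higher among 23846. The members' median log2 fold change was 3.76, a 13.5-fold difference, against -0.06 over all genes tested, and 42 members changed over 8-fold. In all 51 the lowest IL-33 library lay above the highest PBS library, as it did in 26.7% of all genes tested. Of the 100 genes of largest increase, 38 were members. The counts by size of change and of groups without overlap include members that entered through the IL-33 libraries, and are also a description.

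Mki67, the proliferation marker Ki-67 that coats mitotic chromosomes (chr7:135689787-135716379 in GRCm38), was at 2.36, 1.70 and 4.40 FPKM in ILC2PBS 1, 2 and nA and at 63.3 and 38.0 FPKM in Expand and WT. Both IL-33 libraries lay far above every PBS library, and Expand was above WT. Its log2 fold change was 4.24 ± 0.43 (SE, n = 3 and 2, limma adjusted p = 0.00027).

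All 6 genes of CDK1 and its partners rose, with a median log2 fold change of 4.14. Ccnb1, encoding cyclin B1, went from 1.14, 1.06 and 0.400 FPKM in ILC2PBS 1, 2 and nA to 21.0 and 19.0 FPKM in ILC2IL-33, a log2 change of 4.23 ± 0.24. Ccnb2, the other B cyclin, was at 3.97, 3.90 and 5.59 FPKM in ILC2PBS and at 81.2 and 78.6 FPKM in ILC2IL-33. Ccnb2 changed by 4.17, and was at the higher level per length. Cks1b, which encodes a small CDK-binding subunit, was the member of smallest change in the group at 3.84 ± 0.18, from 4.91, 4.50 and 4.68 FPKM to 65.6 and 68.9 FPKM. Its PBS libraries had an SD of 0.202 FPKM (n = 3), and it had the lowest adjusted p of the members (3.91e-05, limma). Cdk1, Ccna2 (cyclin A2) and Cks2 changed by 4.21, 4.11 and 4.03 on the log2 scale.

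The 3 genes for the transcription of G2/M genes and for cyclin turnover rose as well. Fam64a (chr11:72042501-72047370) showed the largest log2 change of all members on floored values, 4.69 ± 0.26, from 0.872, 0.756 and 0.574 FPKM in ILC2PBS 1, 2 and nA to 30.2 and 21.99 FPKM in ILC2IL-33. All its PBS values lay under the floor of 1 FPKM, which understates its change. The order of members depends on the floor: the mean FPKM without it was 35.6-fold higher for Fam64a and 56.9-fold higher for Sgol1. Cdca3, encoding a factor of mitotic entry, was at 1.77, 3.23 and 3.05 FPKM and then at 62.2 and 64.2 FPKM. Foxm1, the transcription factor that drives many of these genes, was lower after IL-33 than Cdca3, at 22.1 and 13.6 FPKM, from 1.46, 1.16 and 1.81 FPKM, a change of 3.57 ± 0.32.

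The chromosomal passenger complex was the role group of the highest median change (4.62). Its kinase Aurkb went from 0.517, 0.769 and 1.55 FPKM to 33.1 and 25.96 FPKM (4.66 ± 0.30). Birc5, which encodes survivin, went from 3.03, 3.73 and 2.59 FPKM to 77.6 and 73.6 FPKM (4.62 ± 0.22). Cdca8, encoding borealin, went from 1.05, 1.66 and 0.467 FPKM to 31.8 and 24.6 FPKM (4.54 ± 0.31). The 3 subunits thus differed by less than their standard errors in fold, while Birc5 stood at more than double the FPKM of both others in each IL-33 library.

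The 5 mitotic kinases had a median change of 3.71. Aurka, encoding the centrosomal Aurora kinase, changed most on floored values at 3.81 ± 0.28, from 0.571, 0.462 and 1.42 FPKM to 17.6 and 14.2 FPKM. Plk1, the Polo-like kinase of mitotic entry, was at 0.195, 0.449 and 1.09 FPKM and then at 15.5 and 12.4 FPKM. Without the floor the mean FPKM was 24.2-fold higher for Plk1 and 19.4-fold higher for Aurka. Plk4, the kinase of centriole duplication, was already at 2.45, 2.27 and 2.44 FPKM in ILC2PBS and reached 14.5 and 14.4 FPKM, the smallest change of the kinases at 2.60 ± 0.23. Nek2 and Melk changed by 3.71 and 3.06.

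Of the 8 genes of the spindle checkpoint and the APC/C, 7 rose and 1 did not pass. Ube2c, which encodes the ubiquitin-conjugating enzyme of the APC/C, was the most abundant member per length after IL-33, at 118 and 129 FPKM against 5.69, 7.01 and 8.45 FPKM in ILC2PBS. Cdc20, encoding the activator that turns the APC/C on at anaphase, changed most in the group on floored values at 4.31 ± 0.39, from 0.902, 1.31 and 2.33 FPKM to 34.3 and 24.1 FPKM. Bub3 (chr7:131560390-131571898) was the exception. It was at 33.4, 36.5 and 23.9 FPKM in ILC2PBS 1, 2 and nA and at 54.2 and 48.5 FPKM in ILC2IL-33, a log2 change of 0.74 ± 0.22 (limma adjusted p = 0.0352), under the fold threshold. The groups did not overlap, and Bub3 was the only member with a PBS median above 10 FPKM. Its checkpoint partners Bub1b, Bub1, Mad2l1 and Ttk changed by 3.69, 3.38, 3.11 and 2.51, and Sgol1, encoding the shugoshin that protects cohesion at centromeres, by 2.85. The floor lowers the estimates of Sgol1 and Ttk, whose mean FPKM without it was 56.9-fold and 20.8-fold higher, against 19.3-fold for Cdc20.

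All 7 centromere and kinetochore genes rose, with a median of 3.55. Nuf2, a subunit of the Ndc80 complex that grips microtubules, changed most on floored values at 4.16 ± 0.26, from 1.41, 0.714 and 1.32 FPKM to 21.6 and 22.5 FPKM. The other subunits Spc24, Ndc80 and Spc25 changed by 3.86, 3.77 and 3.25. Cenpa, the histone H3 variant that marks centromeres, was the most abundant at 63.3 and 70.0 FPKM, from 6.97, 3.96 and 6.60 FPKM. Cenpf had the smallest estimate on floored values at 2.47 ± 0.30, from 0.463, 0.227 and 0.382 FPKM to 7.49 and 4.08 FPKM, with all PBS values under the floor. Without the floor its mean FPKM was 16.2-fold higher, above the 9.44-fold of Spc25 and the 11.4-fold of Cenpa, and that of Cenpe was the most changed at 24.9-fold, against 19.2-fold for Nuf2.

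The 8 kinesins had a median change of 3.44. Kif22, a kinesin that binds chromosome arms, changed most on floored values, from 0.766, 1.06 and 1.98 FPKM to 35.0 and 24.9 FPKM (4.53 ± 0.37). Kif11, the motor that pushes spindle poles apart, changed by 4.16 and Kif20a, of cytokinesis, by 4.06. Kif20b changed least on floored values at 2.74 ± 0.25, from 0.944, 0.577 and 1.13 FPKM to 7.91 and 6.11 FPKM. Kif2c, Kif15, Kif4 and Kif23 lay between them at 3.48, 3.40, 3.10 and 2.88. Without the floor Kif2c led at 24.6-fold, against 23.6-fold for Kif22, and Kif23 was last at 7.41-fold, against 7.94-fold for Kif20b.

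The 6 genes of spindle assembly and cytokinesis had a median of 3.82. Hmmr, a spindle protein, changed most at 4.33 ± 0.26, from 0.909, 0.638 and 1.30 FPKM to 23.6 and 20.4 FPKM. Prc1, which bundles microtubules in the spindle midzone, was at 2.29, 1.66 and 2.26 FPKM and then at 39.1 and 28.8 FPKM. Anln, the actin-binding anillin of the cleavage furrow, changed least at 2.44 ± 0.22, from 0.709, 0.657 and 0.938 FPKM to 5.67 and 5.18 FPKM. Nusap1, Ect2 and Tpx2 changed by 4.12, 3.60 and 3.59.

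Among the genes of chromosome structure, beside Mki67, Top2a (the topoisomerase that untangles sister chromatids) was the most abundant, at 111 and 81.1 FPKM against 6.33, 4.93 and 11.7 FPKM. The condensin subunits Ncapg and Ncaph changed by 4.00 and 3.26, and their partner Smc2, at 4.78, 3.26 and 5.96 FPKM in ILC2PBS and 27.8 and 20.0 FPKM in ILC2IL-33, by 2.38 ± 0.31, the smallest change that passed among the members. Of the 51 members, 41 were higher in Expand than in WT, with a median ratio of 1.25.

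**Figure D3:**
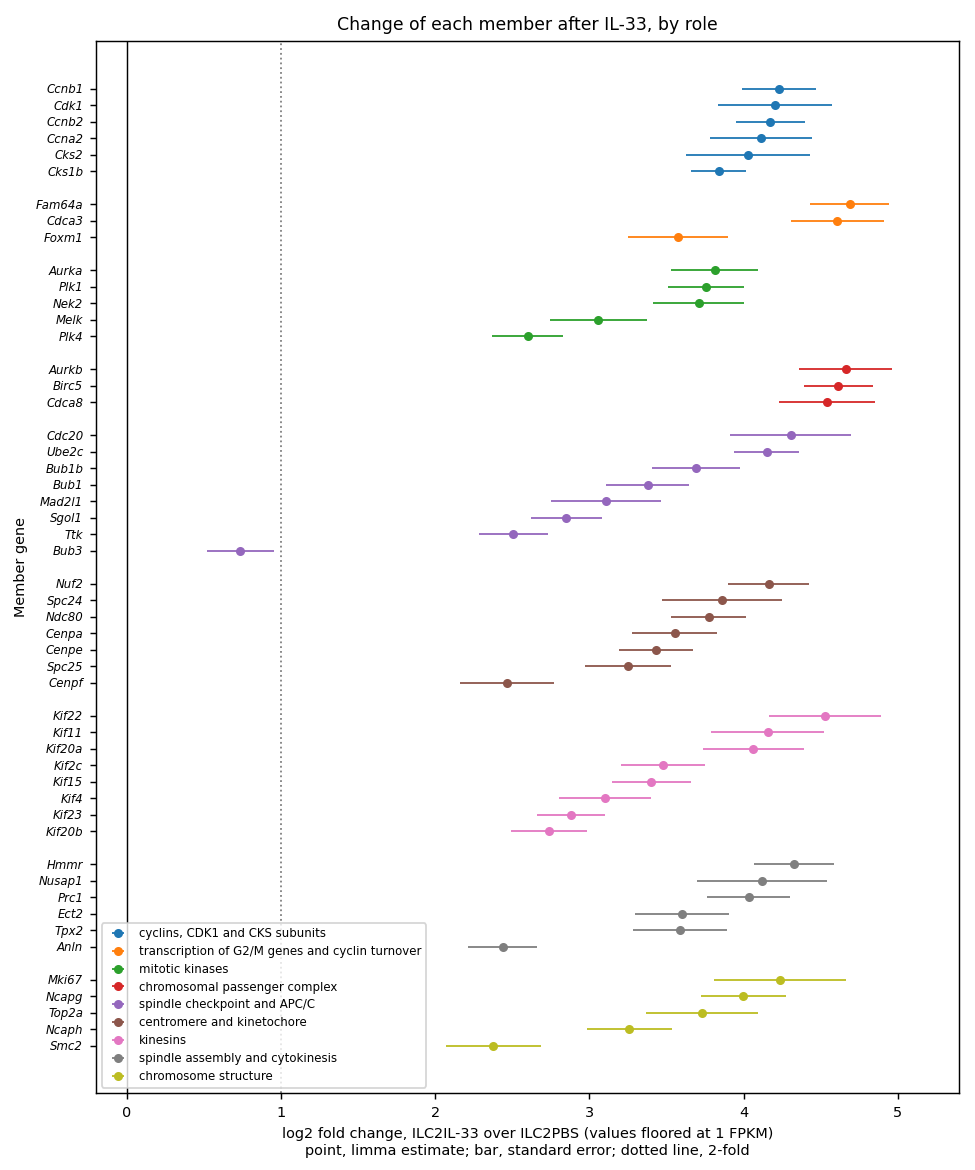
Log2 fold change of each member, ILC2IL-33 over ILC2PBS, from limma on values floored at 1 FPKM, grouped and coloured by role. Points are estimates, bars standard errors and the dotted line a 2-fold change. Bub3 at 0.74 lies left of that line, and the other 50 members lie between 2.38 and 4.69.

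Genes around this machinery were read from lists that hold no member. Changes are on floored values, and 8.22% of all genes tested were called higher and 18.0% lower. Of the genes named below, Cdca5, Ckap2l, Uhrf1, Mybl2, Lin9 and Cdkn2a were not above 1 FPKM in at least 2 PBS libraries. They entered the test through the IL-33 libraries. The unnamed genes were not split in this way, and the counts of the lists are a description. Of 45 other mitotic genes 43 rose (median 3.05), led by Cdca5, Cep55 and Ckap2l at 4.09, 3.98 and 3.94. Of 30 DNA replication and G1/S genes 29 rose (median 2.24), led by Uhrf1, Rrm2 and Tk1 at 3.87, 3.80 and 3.51. The APC/C, the enzyme that Cdc20 and Ube2c serve, was read from 13 genes, its core subunits and the activator Fzr1 (the APC/C core list). They moved little (median 0.17), and 2 passed, the activator Fzr1 at 1.16 and the core subunit Cdc27 at 1.12. None of 9 cohesin genes passed (limma, median 0.21), and 1 had an unadjusted p under 0.05, as did 5613 of the 12565 genes tested. Of 13 DREAM and MYB-MuvB genes 3 rose, Mybl2, Tfdp1 and Lin9 at 2.96, 2.07 and 2.01. Among 16 CDK inhibitors and quiescence genes 3 rose (Cdkn2d, Ccng2 and Cdkn2a at 1.31, 1.23 and 1.22) and 4 fell, led by Klf2, Cdkn2b and Tob1 at -2.49, -2.08 and -1.39. The mean log2 level of the members was 1.30 to 1.40 below that of the G1/S list in ILC2PBS, at differences of -1.40, -1.30 and -1.33 in libraries 1, 2 and nA. After IL-33 both lists had the same mean, with differences of -0.00060 and -0.012 in Expand and WT. Genes of both lists lay under the floor in ILC2PBS.

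**Figure D4:**
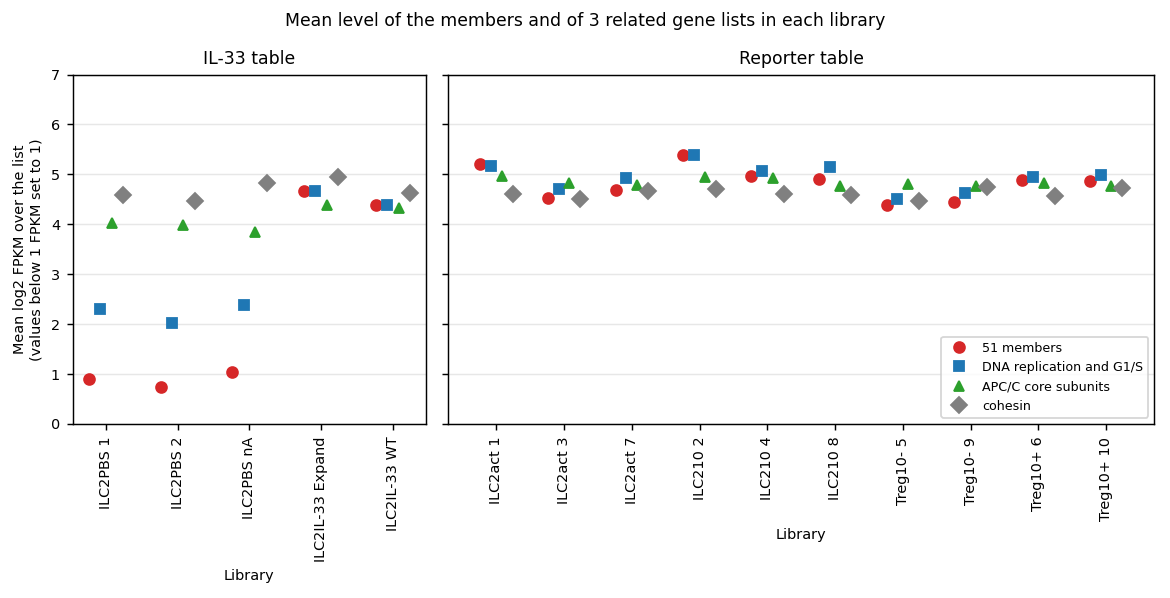
Mean log2 FPKM (values below 1 set to 1) of the 51 members and of the DNA replication and G1/S, APC/C core (with Fzr1) and cohesin lists in each library of both tables. In ILC2PBS the members lie at 0.73 to 1.04, under the G1/S list at 2.03 to 2.37, while in ILC2IL-33 the 2 lists coincide.

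The summed level of the lung structural genes was lower in ILC2IL-33, as given above. With the libraries scaled to equal levels of 16 leukocyte genes, 50 members were again called higher, with a median of 3.33. Of the 12565 genes tested, 535 were called higher and 3234 lower with that scaling. With PBS 1 and 2 left out, an alternative chosen after the values were seen, only PBS nA remained in its group. The members' median was then 3.48, and no count is given. By the equal-variance test per gene that the study used, 29 members were called, against 255 of the 12565 genes called higher and 189 lower.

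The comparison of ILC210 with ILC2act asks what sets Il10-expressing ILC2 apart within the activated population. The members were at similar levels in both. No member passed the test (limma), against 9.24% of the 11564 genes tested called higher and 1.05% lower. An unadjusted p under 0.05 was reached by 4 members, against 3132 of the 11564 genes tested (limma). The equal-variance test called 0 members, and of all genes only 18 higher and 4 lower. All 51 estimates were above 0, as were 6272 of the 11564 genes tested. They ran from 0.03 (Bub3) to 0.48 (Cenpe), with a median of 0.29, or 1.22-fold, against 0.03 over all genes. The geometric mean of the members was 37.0, 23.0 and 25.7 FPKM in ILC2act 1, 3 and 7 and 41.8, 31.3 and 30.0 FPKM in ILC210 2, 4 and 8. ILC2act 1 thus lay above both ILC210 4 and 8, and the groups overlapped. By role the medians ran from 0.15 for the cyclins, CDK1 and CKS subunits to 0.39 for the centromere and kinetochore genes. Of the related lists, the other mitotic genes had a median of 0.33, the G1/S genes 0.27, the APC/C core 0.06 and cohesin 0.02. Only Cenpe and Anln had no overlap, where 20.4% of all genes had ILC210 wholly above ILC2act.

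Mki67 was at 43.6, 32.3 and 34.8 FPKM in ILC2act 1, 3 and 7 and at 57.5, 39.4 and 46.6 FPKM in ILC210 2, 4 and 8 (0.37 ± 0.16, n = 3 and 3, limma adjusted p = 0.184). Each ILC210 library was above the ILC2act library of the preceding number, and ILC2act 1 was above ILC210 4. Ube2c was at 247, 131 and 136 FPKM in ILC2act and at 283, 176 and 168 FPKM in ILC210 (0.31, adjusted p = 0.543). It had the highest FPKM of the members in every library of ILC2 from reporter mice. Cks1b was at 189, 96.3 and 118 FPKM and at 206, 140 and 154 FPKM. Cenpa, Birc5 and Top2a were at 64.6 to 114, 68.2 to 137 and 72.6 to 103 FPKM in ILC2act, and at 88.1 to 131, 94.2 to 156 and 79.9 to 119 FPKM in ILC210. Kif22 and Prc1 were at 38.0 to 58.1 and 48.3 to 73.7 FPKM in ILC2act, and at 49.3 to 77.2 and 58.1 to 86.0 FPKM in ILC210. Bub3 was at 96.5, 76.5 and 75.1 FPKM and at 99.7, 81.0 and 72.8 FPKM. All of these overlapped between the groups.

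ILC2act 1 stood above the other ILC2act libraries by more than the groups differed. ILC2act 1 was above ILC2act 3 in all 51 members, with a median ratio of 1.61, and above ILC2act 7 in all 51, with a median ratio of 1.47. ILC210 2 was above ILC210 4 in 50 and above ILC210 8 in 49. Libraries of consecutive numbers varied together. Over the genes tested their deviations from the group means correlated by 0.345, 0.299 and 0.187, and those of all other pairs by no more than 0.0191. Within these pairs the members were 1.15-fold (2 over 1), 1.39-fold (4 over 3) and 1.15-fold (8 over 7) higher in ILC210 by median, and 45, 51 and 48 of them were higher. In all 3 pairs together 43 of 51 were higher, as were 32.4% of all genes tested. Aurkb was at 61.4, 39.6 and 44.3 FPKM in ILC2act 1, 3 and 7 and at 79.5, 52.6 and 57.5 FPKM in ILC210 2, 4 and 8. Cenpe, the kinetochore motor, was at 8.706, 6.20 and 6.05 FPKM in ILC2act and at 10.9, 8.708 and 9.29 FPKM in ILC210. ILC210 4 and ILC2act 1 were nearly level for Cenpe, so that its lack of overlap is narrow. With the pairs as a block in limma and no fold threshold, an alternative chosen after the values were seen, 21 members had an adjusted p under 0.05, at 1.21-fold to 1.39-fold, against 15.9% of all genes called higher. Aurkb had the lowest (0.39 on the log2 scale, limma adjusted p = 0.00426 with the block), and Mki67 was among them (adjusted p = 0.00798). No member reached a 2-fold difference. Lung structural genes were also higher in ILC210, as given above, and 16 leukocyte genes had a median of -0.23. With the libraries scaled to equal medians the members' median was 0.15 and that of all genes -0.11, and with equal leukocyte levels they were 0.49 and 0.23. The part of other cells in the result was not tested. Leaving out 1 library moved the members' median between 0.14 (without ILC2act 3) and 0.50 (without ILC2act 1), and it was 0.16 without ILC210 2.

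**Figure D5:**
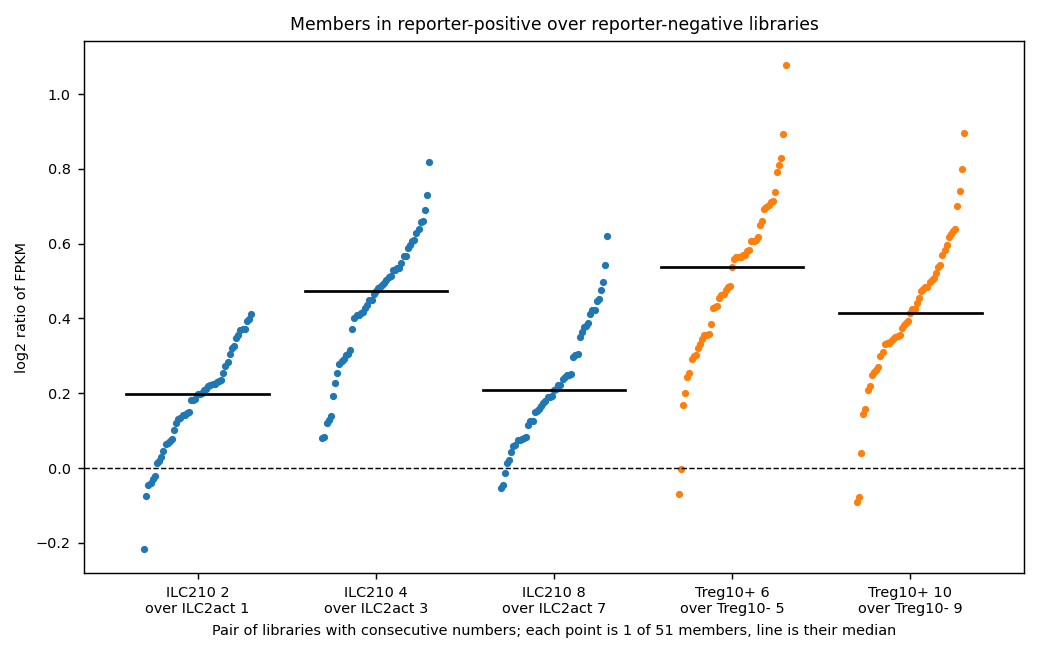
Log2 ratio of FPKM of each of the 51 members in the reporter-positive over the reporter-negative library of each consecutive pair, ILC2 in blue and Treg cells in orange, with points sorted by value and the median as a black line. For ILC210 4 over ILC2act 3 all 51 points lie above 0, and no ILC2 point reaches a 2-fold ratio (1 on the axis).

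In Treg cells the same question gave estimates of the same sign. Again no member passed (limma), against 0.904% of the 10837 genes tested called higher and 0.461% lower. An unadjusted p under 0.05 was reached by 34 members, against 1524 of all genes tested (limma). The equal-variance test called 0 of all 10837 genes, so its count says nothing about the members. The estimates were above 0 in 50 of 51 members, and in 5527 of the 10837 genes tested. They ran from -0.07 (Bub3) to 0.86 (Fam64a), with a median of 0.48, or 1.39-fold, against 0.01 over all genes. The geometric mean of the members was 20.9 and 21.9 FPKM in Treg10- 5 and 9 and 29.7 and 29.1 FPKM in Treg10+ 6 and 10, with no overlap. In 45 members Treg10+ lay wholly above Treg10-, as in 23.0% of all genes tested, and 48 were higher in both pairs of consecutive libraries, as in 36.2%. By role the medians ran from 0.35 for the cyclins, CDK1 and CKS subunits to 0.63 for Fam64a, Cdca3 and Foxm1. The members that overlapped were Cdk1, Cks2, Bub3, Mad2l1, Nuf2 and Spc25. Of the related lists, the other mitotic genes had a median of 0.45, the G1/S genes 0.41, the APC/C core 0.01 and cohesin 0.05. Mki67 was at 21.7 and 32.0 FPKM in Treg10- and at 37.9 and 49.7 FPKM in Treg10+ (0.72 ± 0.23, n = 2 and 2, limma adjusted p = 0.221). Fam64a was at 12.2 and 11.7 FPKM and at 21.7 and 21.8 FPKM (0.86 ± 0.16, adjusted p = 0.0627). Prc1 was at 44.5 and 46.0 FPKM and at 72.3 and 68.9 FPKM (0.64 ± 0.12, adjusted p = 0.0676). In these 3 genes every Treg10+ library was above every Treg10- library. Ube2c was at 117 and 116 FPKM and at 175 and 162 FPKM. An alternative chosen after the values were seen took the consecutive pairs as a block with no fold threshold. In it 35 members had an adjusted p under 0.05 (limma), at 1.19-fold to 1.82-fold, against 9.43% of all genes called higher. Only 2 pairs were at hand, too few to check the pairing. The 8 macrophage genes were also higher in Treg10+, and their part was not tested.

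Whether the reporter difference of the members differed between ILC2 and Treg cells was tested as a contrast of all 10 libraries. None of the members passed (limma adjusted p from 0.256 to 0.999), and 9.37% of the 12475 genes tested did pass. No member had an unadjusted p under 0.05, against 2469 of those genes. The median of the difference was -0.19, lower in ILC2, and it was 0.03 without ILC2act 1, -0.31 without ILC2act 3 and -0.35 without ILC210 2. Leaving out any other library gave -0.26 to -0.09, and equal medians and equal leukocyte levels gave -0.33 and -0.02. The closest to the threshold was Fam64a, at -0.67 ± 0.30 on the log2 scale (limma adjusted p = 0.256).

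Between the cell types few members were called. These comparisons use the same libraries as those above. In ILC2act against Treg10- only Fam64a was called higher, at 35.1, 21.8 and 23.0 FPKM against 12.2 and 11.7 FPKM (1.12 ± 0.21, limma adjusted p = 0.00253), and none was called lower, where 7.89% of the 12475 genes tested were higher and 8.53% lower. Fam64a was not called without ILC2act 1. The median of the members was 0.35, and 0.17 without ILC2act 1. Estimates were above 0 in 48 of 51 members, against 6203 of all genes tested. An unadjusted p under 0.05 was reached by 17 members, against 5417 genes (limma). Without the fold threshold 11 members had an adjusted p under 0.05 (limma), all higher in ILC2act, against 1909 genes higher and 2418 lower. In ILC210 against Treg10+ no member was called (limma), where 12.5% of all genes were higher and 7.25% lower. An unadjusted p under 0.05 was reached by 4 members, against 5693 of the 12475 genes tested. The members' median was 0.25, or 0.09 without ILC210 2. Cks1b came closest, at 140 to 206 FPKM in ILC210 and 97.3 and 102 FPKM in Treg10+ (0.72 ± 0.26, limma adjusted p = 0.0512). Bub3 went the other way, at 72.8 to 99.7 FPKM in ILC210 and 95.8 and 107 FPKM in Treg10+, and these overlapped. With the libraries scaled to equal levels of the leukocyte genes, 7 members were called higher in ILC2act and 3 in ILC210. Of the 12475 genes tested, 1583 and 2785 were called higher in these 2 comparisons with that scaling.

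Across the 10 libraries of reporter mice the members therefore stood in a narrow band, with geometric means from 20.9 FPKM in Treg10- 5 to 41.8 FPKM in ILC210 2. Their mean was close to that of the G1/S list in each of these libraries, with differences of the mean log2 level from -0.25 in ILC2act 7 to 0.04 in ILC2act 1. All 51 members were above 1 FPKM in every one of them.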

How the data were processed

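Lung ILC2 and splenic Treg cells were sorted, and RNA-seq libraries were made by the SMARTer method and read on an Ion Proton (IL-33 and PBS groups) or a NextSeq 500 (reporter groups). Per the labels and methods, the authors aligned reads with TopHat2 2.1.0 to GRCm38 with GENCODE M9 annotation and deposited FPKM per gene from Cufflinks 2.2.1. Of the reporter genes, 312 carried a low-data mark and 5 lacked a value, and these were dropped. The source field of the Treg samples names lung ILC2, and their titles and descriptions, which give splenic Treg cells, were used. The groups were taken from the titles. Nothing in the labels says which mice gave each library, so p-values measure the spread between libraries.

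The 2 tables were kept apart. Values were floored at 1 FPKM, put on the log2 scale and tested with limma 3.58.1 (R 4.3.3, trend) over genes that exceeded 1 FPKM in a number of libraries no lower than the size of the smaller group, with Benjamini-Hochberg adjustment over all of them. A fold change is therefore on the floored log2 scale and understates that of low genes. Genes passed at an adjusted p below 0.05 with a difference of 2-fold or more. Only the contrast of the reporter change in ILC2 with that in Treg cells carried no fold threshold. The unit of the reporter table, which holds FPKM beside text marks, was as deposited. The scripts were tested on simulated data. Depth was estimated from the lowest FPKM steps of genes with 1 transcript. Promoter windows came from RefSeq (GRCm38.p6), both strands were searched, and Python 3.11.15 was used.

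The members and lists were chosen with earlier results of these data known. Any member could be named. Values in every library of a comparison were given for Mki67, for the members of highest mean, largest change and smallest change in each role, and for Bub3. Ccnb2 was added after its values were seen. Of each related list the 3 largest passing changes each way were named. Consecutive library numbers were taken as pairs in both cell types. In ILC2 the deviations of these pairs correlated, as given in the report. In Treg cells the pairing could not be checked. Alternatives were other pseudocounts, filters, scalings and tests, no fold threshold, pairs as a replicate block, a fit of all 10 reporter libraries, and each library left out.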

Additional observations from a re-analysis of the deposited data

How the results depend on the processing

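No result changed direction for a called gene under any alternative run. In IL-33 against PBS the members' median of 3.76 was 3.28 with log2(FPKM + 1), 4.06 with log2(FPKM + 0.1), 4.00 with a mean of at least 5 FPKM, 3.33 with equal leukocyte levels and 3.48 without PBS 1 and 2. The count of 50 members was 29 with the per-gene equal-variance test, 40 of 41 tested with the mean filter, and 50 with any 1 PBS library left out. Leaving out Expand or WT left a single IL-33 library, and the members' median was then 3.71 or 3.94. In all genes, calls were 1033 higher and 2267 lower, 1655 and 1704 with quantile normalization, 1441 and 1974 with equal medians, 535 and 3234 with equal leukocyte levels, and 255 and 189 with the equal-variance test. These scalings moved the all-gene median from -0.06 to 0.14, 0.12 and -0.49.

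In ILC210 against ILC2act the count of 0 members was 0 in every setting with a fold threshold. For the replicate blocks, by consecutive numbers or by the tag in the titles, that count was fixed in advance. A block left the estimates as they were, and the largest was 1.39-fold. Without the fold threshold the count was 0 without a block and 21 with the block by consecutive numbers. All-gene calls were 1069 higher and 121 lower, 1137 and 132 with the replicate block by consecutive numbers, and 18 and 4 with the equal-variance test. With quantile normalization they were 812 and 296. In Treg10+ against Treg10- the count of 0 was 35 with the block and no fold threshold. The median ran from 0.43 to 0.49 with 1 library left out, where a group then held a single library and no count is given. All-gene calls there were 98 higher and 50 lower, and 311 and 123 with the block. In ILC2act against Treg10- the count of 1 was 7 with equal leukocyte levels and 11 with no fold threshold. Of all genes 1583 and 1909 were called higher in these settings, from 984. The member count was 0 with the equal-variance test, 0 without ILC2act 1 and 2 without ILC2act 3. In ILC210 against Treg10+ equal leukocyte levels gave 3 members and a median of 0.76, from 0 and 0.25. With that scaling 2785 of all genes were called higher and their median was 0.51. Quantile normalization gave 1263 higher and 1267 lower genes there, from 1557 and 904. The share of member promoters with a CHR was 72.3% in the window of 150 bases (12.8% of all promoters) and with CCAAT 63.8% (23.4%). Levels below 1 FPKM in ILC2PBS and the low depth of Treg10+ 6 limit precision.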
